A study of Sus scrofa with 92 samples.

Results

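Subcutaneous adipose tissue, the fat under the skin, was sequenced in pigs of 9 breeds at 60 days of age, with 1 sample per breed. These 9 samples were taken by their tissue label from the 92 samples of the study and set against the 74 samples of 8 other tissues, so that 83 single-tissue samples entered the comparison. The other tissues were heart, liver, kidney and ovary (9 samples each), spleen, psoas major and longissimus dorsi, a pair of skeletal muscles (10 each), and lung (8). The remaining 9 samples were mixtures of tissues and were left out. Adipose came from Berkshire, Hampshire, Landrace, Large White and Piétrain, which are Western breeds, and from Bamei, Jinhua, Meishan and Rongchang, which are Chinese breeds; the origin is general knowledge and is not in the labels. The 10th breed, Tibetan wild boar, gave spleen and skeletal muscle only, and Rongchang gave no lung. The labels name no treatment, no body site of the fat and no count of animals behind a sample. Breeds served as replicates. In the main comparison each p-value measures a difference against a spread shared by all 9 tissues, after differences between breeds were fitted. It does not measure the spread of the adipose samples alone.

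White adipocytes store fat as triglyceride in a large droplet that is coated by perilipin and CIDE proteins. They build triglyceride from fatty acids that are taken up or newly made from glucose and acetate, and they release it by lipolysis, a chain of lipases that catecholamines switch on and insulin switches off. In pigs the adipocyte, rather than the liver, is known as the main site of new fatty acid synthesis, and pigs are known to lack a working UCP1, the heat-producing protein of brown fat. Around the adipocytes lie fibroblasts and their precursors, a collagen matrix, vessels, nerves and macrophages. In whole tissue, fewer cells of a type and less RNA per cell cannot be told apart.

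Expression was given as FPKM, a fragment count normalised to gene length and library size, and each sample was rescaled by its median ratio to the other samples; values below are this scaled FPKM unless stated. A gene was called higher than every other tissue where adipose exceeded each of the 8 tissues by more than 1 on the log2(scaled FPKM + 1) scale with an adjusted p under 0.05 in each (limma, breed as block). A gene was called higher or lower than the mean of the other tissues where the difference from the equally weighted mean of the 8 passed the same limits. Of 17207 genes tested, 273 (1.59%) were higher than every other tissue and 3 (0.0174%) were lower. Against the mean, 1223 (7.11%) were higher and 1030 (5.99%) lower, and the median gene differed by -0.13. Genes were tested where at least 3 samples reached 1 FPKM, and counts in gene lists cover only members that passed this filter. The 273 include the hair follicle keratins KRT25, KRT27, KRT71 and KRT72, which passed it only through adipose samples, so their calls support nothing. How many of the 273 passed only in that way was not counted. Because a small constant is added before the logarithm, log2 differences understate the change of low genes.

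The adipose samples differed in what else they held. Their total FPKM ran from 550285 to 921614 and 12093 to 12889 genes reached 1 FPKM, within the range of the other tissues; absolute depth is unknown. The Meishan sample carried skeletal muscle transcripts: the summed level of 23 skeletal muscle markers was 9256 there, 3748 in Landrace, 1352 in Jinhua and 468 to 1105 in the other 6, against at least 73857 in the muscle samples. The sum includes CA3, the marker with the largest difference from the mean of the other tissues. How much of each sum is CA3 was not separated, so the lower sums need not measure muscle tissue. Keratins of the hair follicle's inner root sheath were present in Berkshire, Large White, Bamei, Jinhua and Rongchang and at or near 0 in the other 4. Without the Meishan sample, 283 genes were higher than every other tissue, and 272 of them were among the 273. Without the 5 keratin-bearing samples the count was 262, with 226 shared, and without these and Meishan it was 266, with 218 shared.

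**Figure D1:**
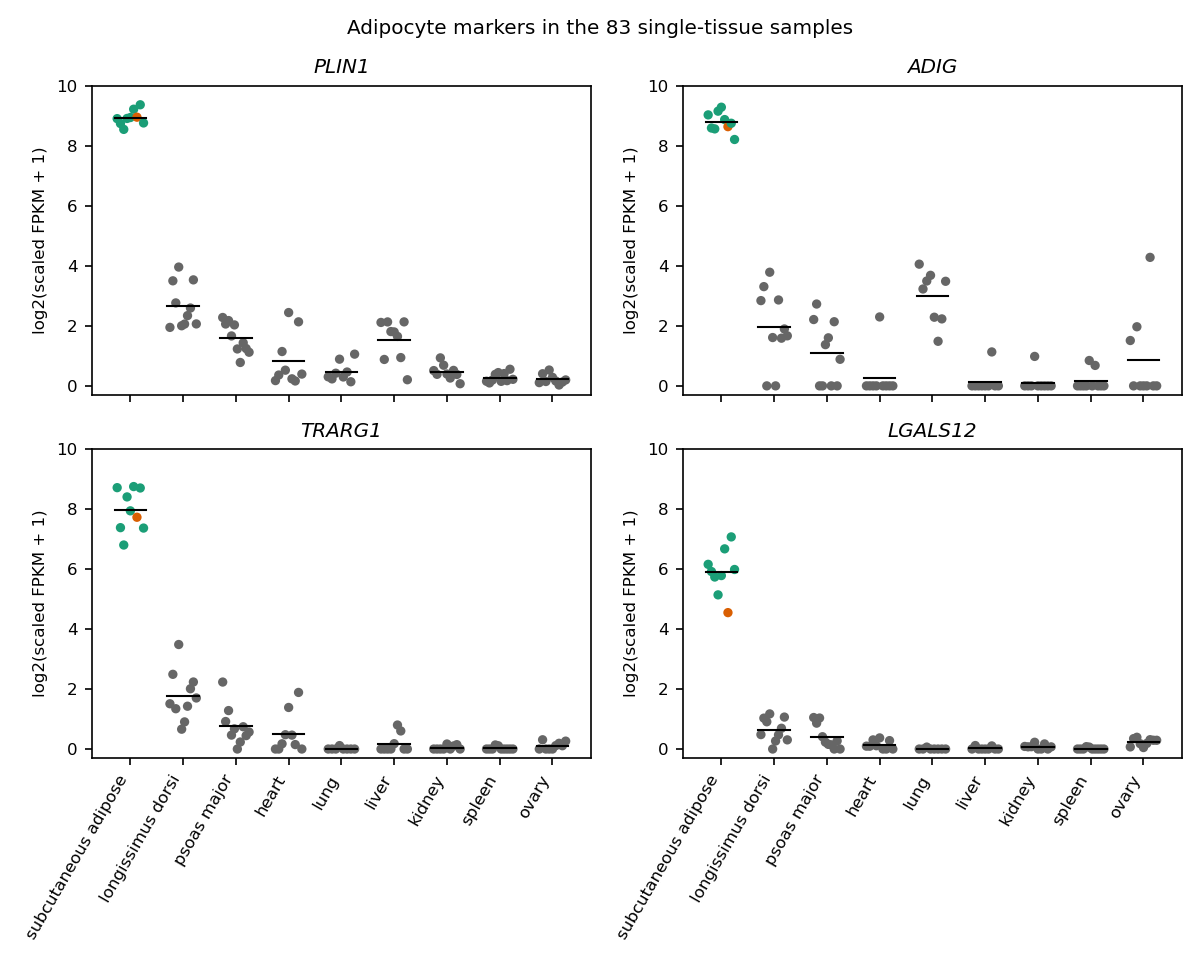
Level of 4 adipocyte genes in each of the 83 single-tissue samples, as log2(scaled FPKM + 1), by tissue. Points are samples, bars are tissue means, adipose is green and the Meishan adipose sample orange; the 9 adipose samples lie above all 74 others for each gene, with the lowest PLIN1 adipose value at 375 and the highest value elsewhere at 14.6.

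The 4 genes that mark adipocytes here were higher in every adipose sample than in any other single-tissue sample. PLIN1, perilipin 1, the coat of the adipocyte lipid droplet, had a lowest value of 375, a median of 483 and a highest of 663 scaled FPKM. All 9 breeds were close, and the highest other sample, a longissimus dorsi, stood at 14.6. The difference from longissimus dorsi, the nearest tissue, was 6.21 ± 0.22 on the log2 scale (SE; adjusted p = 2.91e-37). TRARG1, a regulator of the traffic of the insulin-sensitive glucose transporter, ran from 111 in Hampshire to 430.3 in Large White with a median of 245, and was 6.19 ± 0.23 above longissimus dorsi (adjusted p = 2.22e-36). ADIG, adipogenin, a small membrane protein of adipocytes, ran from 296 to 626 with a median of 432, and was 5.85 ± 0.42 above lung (adjusted p = 2.42e-20). LGALS12, galectin-12, a droplet-associated lectin, ran from 22.4 in Meishan to 134 in Piétrain with a median of 59.5, and was 5.22 ± 0.15 above longissimus dorsi (adjusted p = 3.22e-43). Of 12 further adipocyte identity markers, 11 were higher than the mean, none lower and 6 higher than every tissue, with a median difference of 3.35. As the 4 genes were given as markers of the tissue, their levels describe it and support nothing further.

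Of the 273 genes, 163 carried a symbol, 206 were highest in adipose in 9 of 9 breeds, and 147 had no overlap with any other sample. Over all genes, 198 (1.15%) had no overlap, and those highest in 9 of 9 breeds were not counted. The 273 were chosen in these same samples for being higher in adipose, so the 206 and 147 describe them and support nothing further. A smallest difference above 3 was reached by 25. Beyond the markers, the leading genes were of varied known function. SDR16C5, a retinol dehydrogenase, had a lowest value of 20.2 in Hampshire, a median of 83.9 and a highest of 204 in Large White. No other sample passed 3.53, and the smallest difference was 4.66 ± 0.22 (adjusted p = 1.72e-30). PAQR6, a membrane receptor of the progestin and adipoQ receptor family, ran from 74.4 to 206 with a median of 124 and was 4.44 ± 0.14 above longissimus dorsi (adjusted p = 9.45e-40). PPP1R1B, an inhibitor of protein phosphatase 1, was among the steadiest genes, between 177 and 252 with a median of 236, and was 4.23 ± 0.27 above kidney (adjusted p = 2.22e-23). NPR1, the receptor through which natriuretic peptides drive lipolysis, was steadier still on the log2 scale, at 57.9 to 74.7 with a median of 69.0. None of these 4 genes overlapped with another tissue.

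Other leading genes separated the breeds. ALDOC, aldolase C, a glycolytic enzyme, was between 675 and 913 in Berkshire, Landrace, Large White, Meishan and Rongchang and between 171 and 264 in Hampshire, Piétrain, Bamei and Jinhua. Even the 4 lower samples lay above every other tissue, where the highest sample, a heart, stood at 53.6, and the smallest difference was 4.06 ± 0.27 (adjusted p = 2.86e-22). SAL1, the pig salivary lipocalin, a carrier of small odorants, ran from 8.45 in Bamei to 164 in Berkshire with a median of 54.3, above the 6.03 of the highest other sample. SLC36A2, an amino acid transporter used as a surface marker of brown and beige adipocytes, ran from 9.30 to 46.7 with a median of 14.3 and was 3.67 ± 0.14 above longissimus dorsi (adjusted p = 3.29e-35). ADAMTS4, a protease of the matrix, ran from 4.32 in Rongchang to 82.4 in Piétrain, so that the Rongchang sample overlapped with psoas major. CPHL1 was 0.0325 in Meishan, 128 in Rongchang and 4.83 to 27.1 in the other 7.

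**Figure D2:**
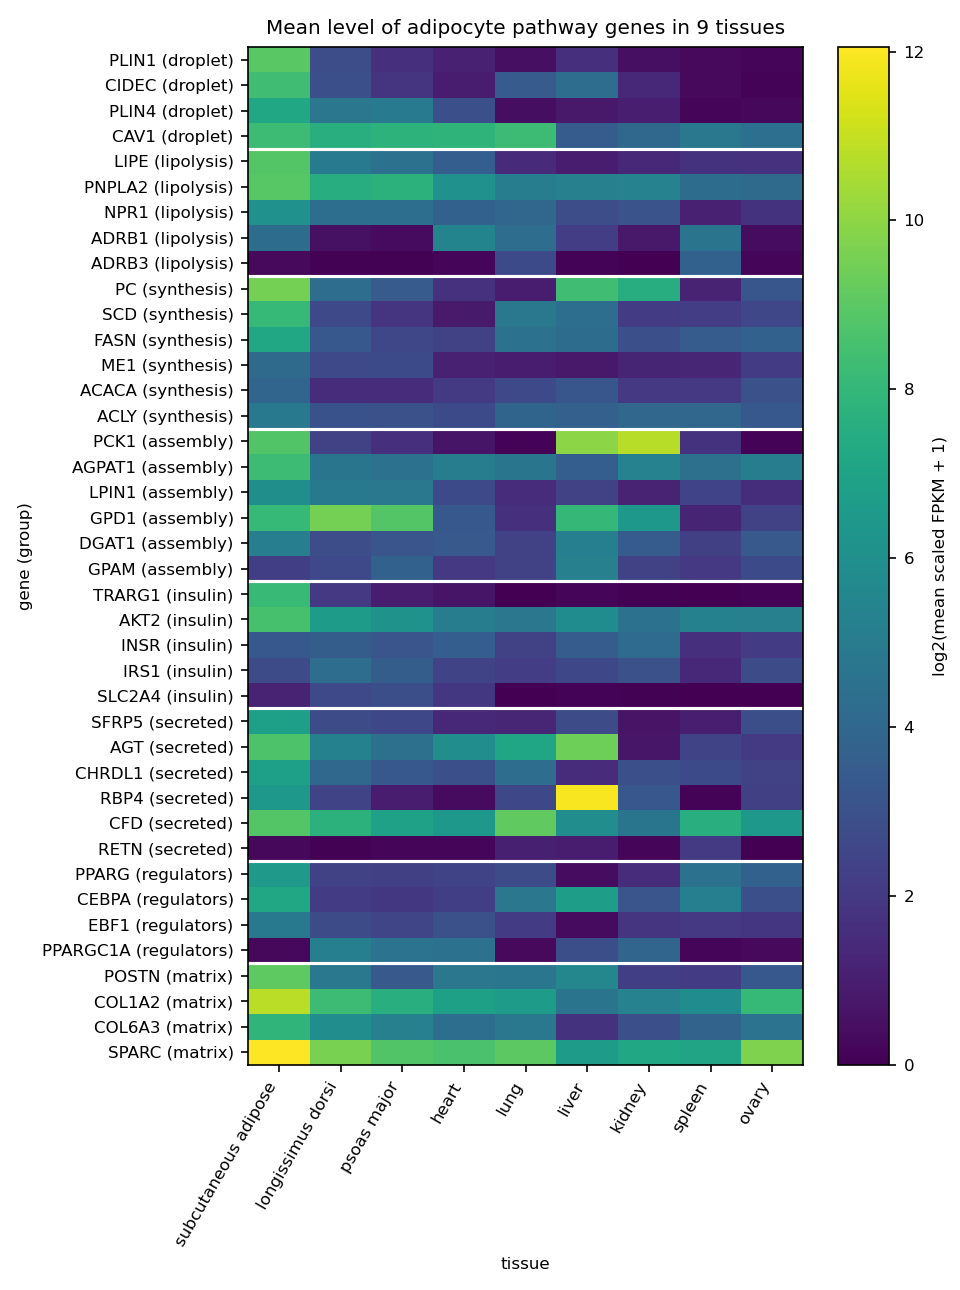
Mean level of genes of adipocyte function in the 9 tissues, as log2(mean scaled FPKM + 1), grouped by role from droplet proteins at the top to matrix at the bottom. Among the 9 tissues, adipose is the brightest for PLIN1, LIPE, TRARG1 and POSTN, while PCK1 is brighter in kidney and RBP4 in liver.

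Of 13 coat and storage proteins of the lipid droplet tested, 7 were higher and 2 lower than the mean of the other tissues, 4 were higher than every tissue, and the median difference was 1.27. CIDEC, which fuses droplets, had a lowest value of 44.3 in Hampshire, a median of 362 and a highest of 597 in Landrace. Hampshire stood apart, with the other 8 breeds at 197 or more, and all 9 exceeded the highest other sample, a liver at 30.6; the smallest difference was 3.82 ± 0.26 (adjusted p = 1.81e-21). PLIN4, a perilipin of small droplets, ran from 54.6 to 261 with a median of 136 and was 2.24 ± 0.18 above psoas major (adjusted p = 5.71e-18). CAVIN3, a coat protein of caveolae, was higher than every tissue by at least 1.22 ± 0.15 (adjusted p = 1.61e-10), but by 0.73 on FPKM as deposited, which is below the limit. CAV1, the caveolin that shapes the adipocyte surface, stood at 306 ± 31.4 (SD, n = 9), next to 303 ± 47.6 in lung (n = 8; difference -0.00 ± 0.15). The storage proteins of other tissues were low: CIDEB, the CIDE protein of liver, was at most 0.547 against 114 ± 41.8 in liver (n = 9), and FITM1, a droplet protein of muscle, was 18.7 in Meishan and at most 2.48 in the other 8 breeds.

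Lipolysis was represented at the levels of lipases and of the receptors that control them. Of 18 genes tested, 13 were higher than the mean of the other tissues, none was lower, 4 were higher than every tissue, and the median difference was 1.96. LIPE, hormone-sensitive lipase, had a lowest value of 274, a median of 457 and a highest of 644. All 9 samples lay above the highest other sample, a longissimus dorsi at 83.5, and the smallest difference was 3.97 ± 0.24 (adjusted p = 2.62e-24). PNPLA2, the adipose triglyceride lipase that takes the first step, ran from 308 to 679 with a median of 491 and was 1.29 ± 0.16 above psoas major (adjusted p = 4.72e-11). It was highest in adipose in 9 of 9 breeds but overlapped with psoas major, where 1 sample reached 525. ABHD5, the activator of that lipase, ran from 14.1 to 72.4 and differed from liver by -0.88 on the log2 scale. G0S2, the inhibitor of that lipase, stood at 34.1 ± 22.7 against 334 ± 175 in liver (n = 9 each). Against the mean of the other tissues G0S2 was not called. It passed as higher without the 5 keratin-bearing samples (1.28, adjusted p = 0.000304) and without Meishan too (1.31, adjusted p = 0.00161). MGLL, monoacylglycerol lipase of the last step, was at 155 ± 49.7, with heart at 116 ± 23.3 and a difference of 0.37 ± 0.20 (adjusted p = 0.0947).

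Among the receptors, NPR1 was 1.75 ± 0.10 above longissimus dorsi (adjusted p = 1.4e-25). ADRB1, the β1-adrenergic receptor, stood at 18.1 ± 4.18 in adipose and at 41.8 ± 6.98 in heart (n = 9 each), and was 1.91 ± 0.10 above the mean of the other tissues (adjusted p = 1.71e-28). ADRB3, the β3-adrenergic receptor known from rodent adipocytes, was at most 0.695 in adipose, with a median of 0.175, and at 12.6 ± 6.42 in spleen (n = 10). FFAR4, a receptor for long-chain fatty acids, ran from 2.41 to 15.8 and was 2.50 ± 0.13 above the mean (adjusted p = 4.48e-28).

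Genes of new fatty acid synthesis ranged widely over the adipose samples, 1 per breed. Of 23 genes tested, 13 were higher than the mean of the other tissues and 1, the desaturase FADS2, was lower; the median difference was 1.16. FASN, the fatty acid synthase, had a lowest value of 12.5 in Jinhua, a median of 28.3 in Landrace and a highest of 535 in Large White. Berkshire (409), Rongchang (223) and Meishan (91.3) followed Large White, while the other 5 breeds (12.5 to 28.3) overlapped with lung (22.6 ± 3.51, n = 8) and with liver. SCD, which desaturates the product, was 1743 in Large White, 309.6 in Berkshire, 169 in Rongchang, 111 in Meishan, 67.5 in Landrace and 4.48 to 16.4 in Hampshire, Piétrain, Bamei and Jinhua. Large White thus stood above the Hampshire sample by a factor of 389, and the last 4 breeds overlapped with the other tissues.

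The enzymes upstream followed a similar order over a narrower range. ACLY, which makes cytosolic acetyl-CoA, was 85.1 in Large White, 40.3 in Rongchang, 31.0 in Berkshire and 22.7 in Meishan, with the other 5 at 13.4 to 15.5. ACACA, the acetyl-CoA carboxylase, was 37.7, 24.1, 19.4 and 14.1 in Large White, Berkshire, Rongchang and Meishan, and 4.62 to 8.11 in the others. Of the 23 synthesis genes, 7 had the same 4 highest samples as FASN, itself included; the others were SCD, ACLY, ACACA, the citrate carrier SLC25A1, the acetate-activating ACSS2 and MID1IP1, a partner of ACACA. SLC25A1, ACSS2 and MID1IP1 were named after their values had been seen. The share of all genes with the same 4 highest samples was not counted, so the 7 are a description only. PC, pyruvate carboxylase, which feeds citrate export, kept a different order, with its 4 highest samples in Hampshire, Jinhua, Landrace and Piétrain and a range of only 507 to 1048.

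The livers of the same breeds did not span such a range, although the labels do not tie them to the same animals. FASN in liver ran from 4.81 in Hampshire to 48.1 in Rongchang and SCD from 3.87 in Hampshire to 36.0 in Berkshire. The Large White liver, with FASN at 14.7 and SCD at 20.4, was not the highest for either gene. The 5 highest adipose samples for ALDOC were also the 5 highest for FASN and SCD, whereas LGALS12 was highest in Piétrain.

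FASN passed as higher than every tissue, with a smallest difference of 1.31 ± 0.37 from lung (adjusted p = 0.00157), and was the highest tissue in 5 of 9 breeds. The call was lost without Large White (0.90) or Berkshire (1.00), in paired differences within breeds (1.15, adjusted p = 0.191) and on FPKM as deposited (0.83). Without the 5 keratin-bearing samples, which include the 3 highest for FASN, the difference was 0.56 (adjusted p = 0.0936), and without Meishan too it was 0.12 (adjusted p = 0.793). SCD was 3.32 ± 0.36 above the mean (adjusted p = 1.48e-12) but 1.05 ± 0.50 above lung (adjusted p = 0.0625). PC was highest in adipose in 9 of 9 breeds and was 1.24 ± 0.20 above liver (adjusted p = 7.04e-08). ME1, the malic enzyme that supplies NADPH, ran from 7.47 to 35.6 with a median of 13.0 and was 1.60 ± 0.22 above psoas major (adjusted p = 1.54e-09). The median of the 23 genes was 0.92 without the 5 samples and 0.77 without Meishan too.

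**Figure D3:**
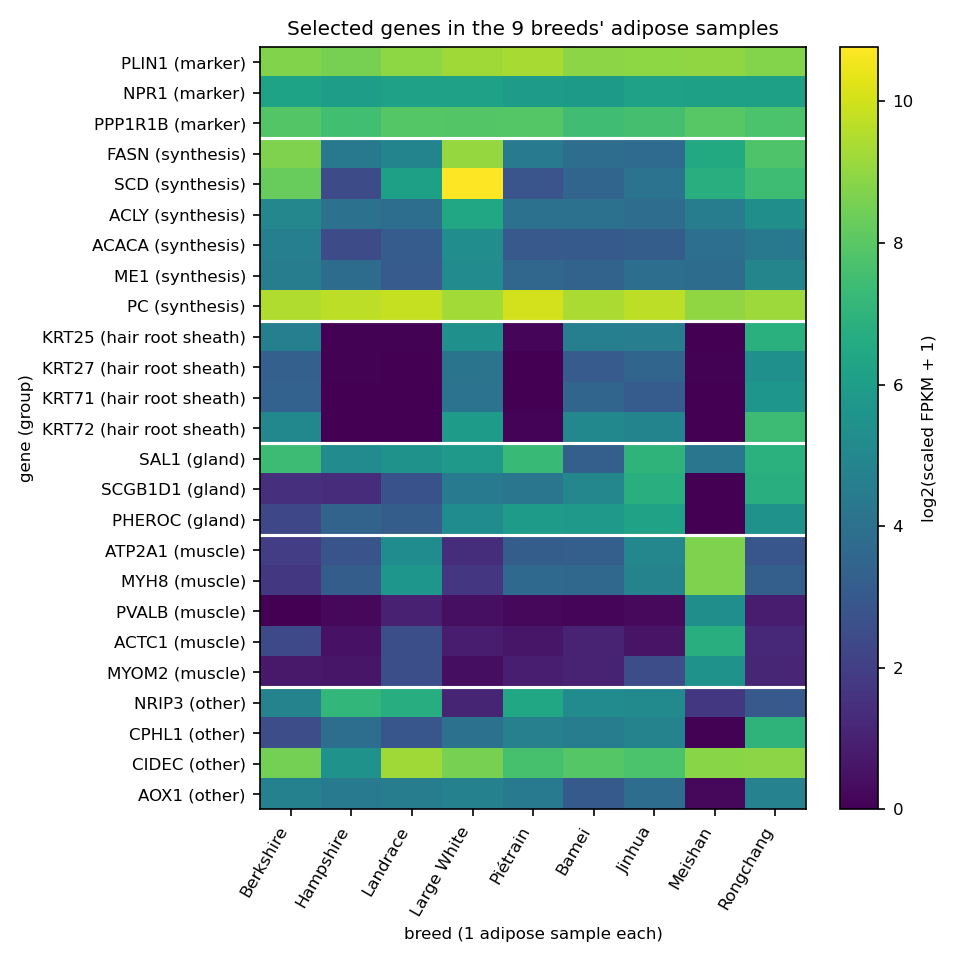
Level of selected genes in the 9 adipose samples, as log2(scaled FPKM + 1), grouped by marker, fatty acid synthesis, hair root sheath, gland, skeletal muscle and other genes. PLIN1 and NPR1 are even across breeds, FASN and SCD are brightest in Large White, the root sheath keratins are dark in Hampshire, Landrace, Piétrain and Meishan, and the muscle genes are brightest in Meishan.

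Of 15 triglyceride assembly genes tested, 8 were higher than the mean of the other tissues and 1 lower, and 2 were higher than every tissue; the median difference was 1.12. AGPAT1, which adds the next acyl chain to lysophosphatidate, had a lowest value of 163, a median of 320.2 and a highest of 426. It overlapped with no other sample, the highest being a kidney at 48.6, and was 2.90 ± 0.12 above kidney (adjusted p = 2.62e-34). LPIN1, the phosphatidate phosphatase, ran from 23.1 in Rongchang to 87.8 with a median of 63.2 and was 1.28 ± 0.26 above psoas major (adjusted p = 1.13e-05). DGAT1, of the last step, was at 35.1 ± 7.49 against 35.5 ± 4.24 in liver (n = 9 each; difference -0.04 ± 0.11, adjusted p = 0.782). GPAM, the mitochondrial glycerol-3-phosphate acyltransferase, stood at 3.76 ± 0.979 against 36.8 ± 23.7 in liver (n = 9 each). PCK1, which makes glycerol phosphate from pyruvate in fat, was at 435 ± 191 in adipose and differed from kidney by -2.07 on the log2 scale, but was 5.32 ± 0.23 above the mean (adjusted p = 4.86e-32). ACSL1, the acyl-CoA synthetase known as the main form of adipocytes, passed against the mean at 1.12 ± 0.18 (adjusted p = 1.19e-07) but fell to 0.98 without Large White and to 0.95 without the 5 keratin-bearing samples.

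Of 14 genes of fatty acid uptake and transport tested, 5 were higher than the mean of the other tissues, 1 lower and 2 higher than every tissue, with a median of 0.40. ANGPTL4, an inhibitor of lipoprotein lipase, ran from 35.7 in Rongchang to 267 with a median of 206. The other 8 breeds were at 127 or more, and the smallest difference, from liver, was 1.14 ± 0.26 (adjusted p = 6.86e-05; 1.00 without Piétrain, just below the limit). SLC27A3, an acyl-CoA synthetase of the fatty acid transporter family, was at 24.9 ± 8.58 and 1.28 ± 0.14 above kidney (adjusted p = 4.14e-13). FABP5, a fatty acid carrier, was at 574 ± 154 and 0.79 ± 0.18 above heart, which is under the limit of 1. SLC27A1, a transporter of muscle and fat, was at 4.53 ± 1.36 against 25.9 ± 9.88 in psoas major (n = 10). Carriers and enzymes best known from adipose, among them FABP4, LPL, CD36, ADIPOQ and LEP, were not analysed here.

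Of 30 genes of insulin action tested, 5 were higher and 2 lower than the mean, with a median of 0.00. Over all genes, 7.11% were higher and 5.99% lower. Besides TRARG1, AKT2, the kinase that passes the insulin signal to glucose uptake, was higher than every tissue, with a lowest value of 198, a median of 360.3 and a highest of 573. No other sample passed 147, and it was 1.85 ± 0.12 above longissimus dorsi (adjusted p = 9.21e-23). INSR, the insulin receptor, was at 8.93 ± 3.92 and IRS1, its substrate, at 5.89 ± 0.867, with differences from the mean of 0.25 ± 0.12 (adjusted p = 0.0631) and 0.03 ± 0.12 (adjusted p = 0.806). SLC2A4, the insulin-sensitive glucose transporter GLUT4, was low, at 0.411 to 2.39 against 6.42 ± 3.91 in psoas major (n = 10), and 0.27 ± 0.12 above the mean (1.48 with a constant of 0.1 in place of 1).

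Secreted factors formed a varied group. Of 32 tested, 13 were higher than the mean of the other tissues, none lower and 8 higher than every tissue; the median was 0.74. SFRP5, a decoy receptor for WNT ligands, had a lowest value of 28.1 in Hampshire, a median of 102 and a highest of 207 in Large White. No other sample passed 16.2, and the smallest difference was 3.80 ± 0.26 (adjusted p = 2.1e-21). CHRDL1, an antagonist of BMP ligands, was steady at 81.1 to 135 with a median of 109 and was 2.55 ± 0.16 above lung (adjusted p = 2.83e-23). PTX3, a pentraxin of innate immunity, ran from 11.2 to 108 and overlapped with longissimus dorsi; its smallest difference was 1.43 ± 0.34 (adjusted p = 0.000147), or 0.85 on FPKM as deposited. AGT, angiotensinogen, was at 418 ± 157 against 661 ± 323 in liver (n = 9 each; difference -0.58 ± 0.27, adjusted p = 0.0526). CFD, the complement factor adipsin, was at 456 ± 45.3 against 555 ± 112 in lung (n = 8; difference -0.25 ± 0.20), and was 2.05 ± 0.15 above the mean (adjusted p = 1.21e-20). RETN, resistin, was at most 0.811.

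**Figure D4:**
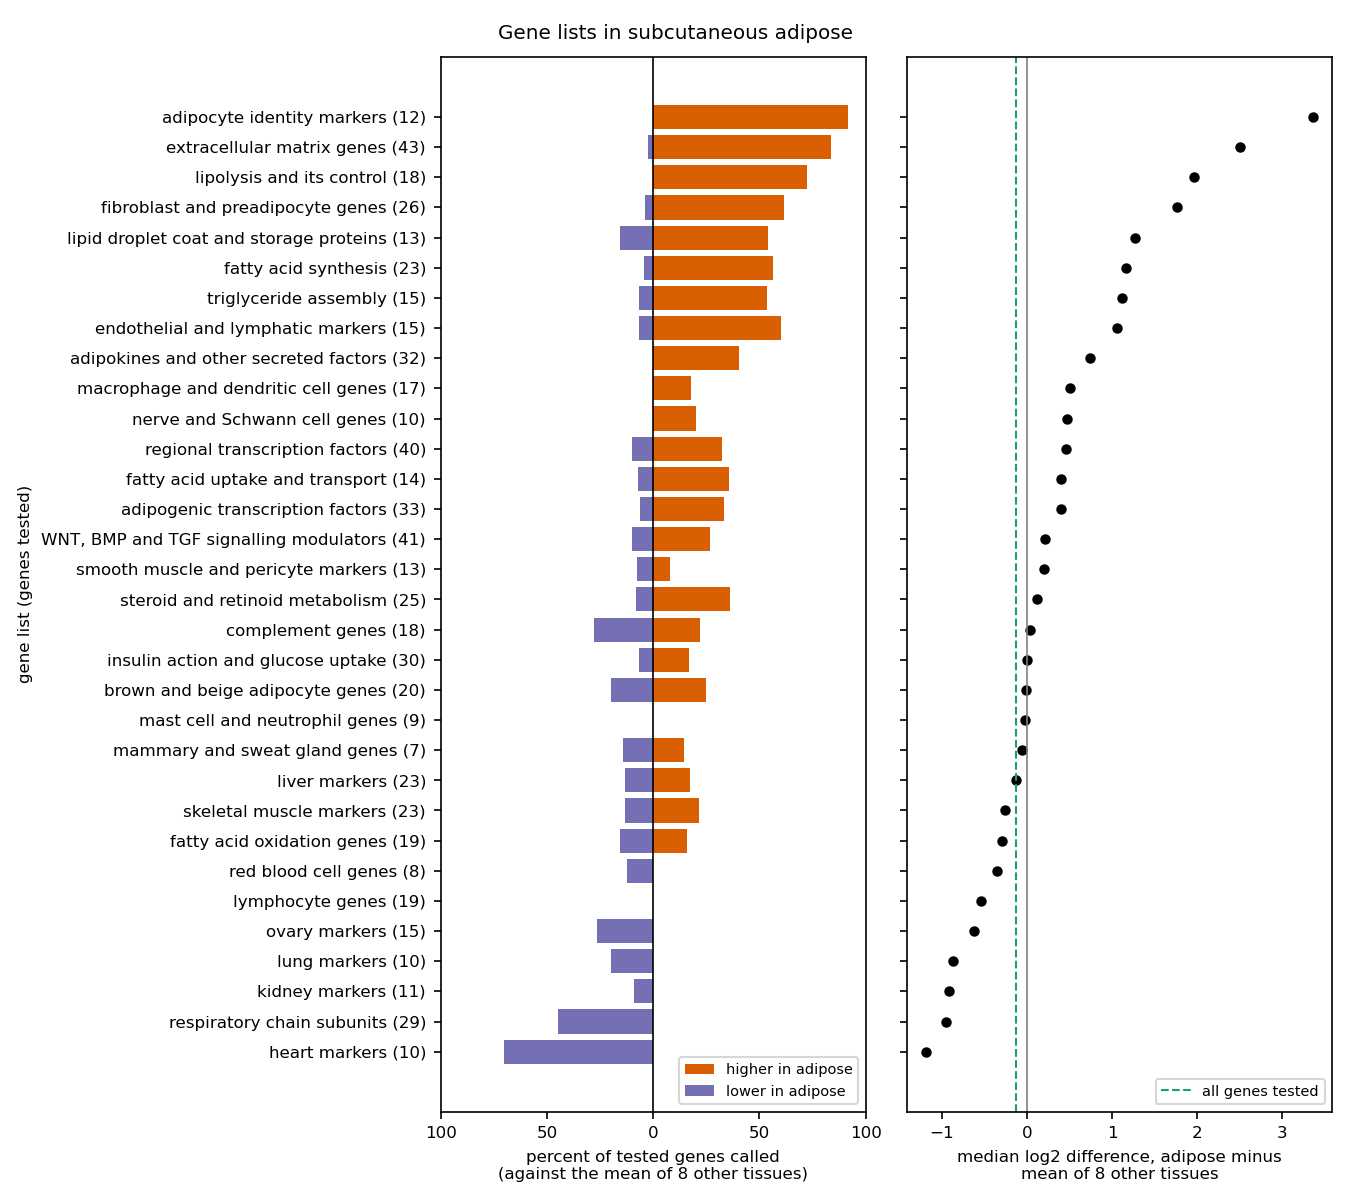
Gene lists in subcutaneous adipose. Left, the percent of the tested genes of each list called higher (right of 0) or lower (left of 0) than the mean of the 8 other tissues; right, the median log2 difference of each list, with the median of all genes (-0.13) as a dashed line. The keratinocyte list is not drawn, since some members passed the filter only through adipose samples. Adipocyte identity and extracellular matrix genes lie highest, and respiratory chain and heart genes lowest.

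Among transcription factors, 11 of 33 adipogenic regulators were higher than the mean of the other tissues and 2 were lower, with a median of 0.40. PPARG, the master regulator of adipocyte differentiation, had a lowest value of 65.7, a median of 78.0 and a highest of 119. All 9 samples lay above the highest other sample, a spleen at 37.8, and the smallest difference was 1.93 ± 0.17 (adjusted p = 6.97e-17). EBF1, an early B cell factor that also acts in adipocytes, ran from 19.2 to 36.0 with a median of 27.7 and was 1.86 ± 0.10 above heart (adjusted p = 2.07e-26). Its relatives EBF2 and EBF3 also overlapped with no other tissue, at 5.68 ± 1.04 and 10.7 ± 1.48, with smallest differences of 0.98 ± 0.09 and 0.83 ± 0.08 that miss the limit of 1. CEBPA, a partner of PPARG, was at 147 ± 70.9, 0.49 ± 0.20 above liver (adjusted p = 0.0227). The 2 lower genes were PPARGC1A, the coactivator of mitochondrial biogenesis, at 0.0722 to 0.329 (-2.30 ± 0.24 from the mean, adjusted p = 1.4e-13), and WT1, a factor of mesothelium and gonad, at most 0.0992.

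Genes known from brown and beige fat were divided, with 5 of 20 higher and 4 lower than the mean of the other tissues and a median of -0.01. UCP3, an uncoupling protein of muscle, was at 58.2 ± 13.9 in adipose against 95.5 ± 29.5 in longissimus dorsi (n = 10), and 3.97 ± 0.14 above the mean (adjusted p = 4.94e-38). ZIC1, a factor of brown and dorsal mesenchyme, ran from 0.479 to 8.42, below the 11.4 ± 3.10 of longissimus dorsi (n = 10). PRDM16, a regulator of the brown programme, was at 0.512 ± 0.304, and P2RX5, a purinergic receptor, was at most 4.21 against 59.3 ± 17.6 in psoas major (n = 10).

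Of 29 nuclear respiratory chain subunits, none was higher and 13 were lower than the mean of the other tissues, with a median of -0.95; on FPKM as deposited and after quantile normalization 9 were lower. Their summed level in adipose was 2050.4 to 3282 with a median of 2425. The median sum was higher in heart (19574), psoas major (16989), longissimus dorsi (14999), liver (4751) and kidney (4249), and lower in ovary (1975), spleen (1971) and lung (1408); the highest ovary (2267) and spleen (2166) samples overlapped with adipose. UQCRQ, a subunit of complex III, was 39.3 to 67.1 with a median of 48.0; its difference from heart was -3.90 and that from the mean -2.03 ± 0.08 (adjusted p = 9.18e-35). ATP5MC1, of ATP synthase, was lower by -1.84 ± 0.11 (adjusted p = 5.85e-25) and UQCRFS1, of complex III, by -1.61 ± 0.06 (adjusted p = 1.02e-34). Transcripts of the mitochondrial genome were the most abundant in adipose, ATP8 at 29565 ± 7072 FPKM as deposited, followed by ATP6, COX3, ND3, COX2 and COX1. ATP8, ATP6 and COX3 differed from the mean by 2.36, 2.27 and 2.06, with an adjusted p of 0.161, 0.178 and 0.199; in paired differences within breeds they passed as higher, at 2.37, 2.28 and 2.06 (adjusted p = 0.00241, 0.00275 and 0.00365). SPARC, a matrix protein, was the most abundant nuclear transcript with a symbol at 4466 ± 1402 FPKM as deposited (SD, n = 9). Of 19 fatty acid oxidation genes 3 were higher and 3 lower, with a median of -0.29. ACAA1, a thiolase of peroxisomes, was 3.53 ± 0.11 above the mean (adjusted p = 1.31e-41), and PDK4, an inhibitor of pyruvate oxidation, was 1.13 ± 0.21 above it (adjusted p = 2.87e-06). The mitochondrial CPT1B and ACADM were at -1.23 ± 0.10 and -1.19 ± 0.08 (adjusted p = 2.78e-18 and 5.24e-22), the third lower gene being ETFA.

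Extracellular matrix genes were widely higher in adipose: 36 of 43 tested were higher than the mean of the other tissues, 17 were higher than every tissue, and the median was 2.50. POSTN, periostin, had a lowest value of 334 in Jinhua, a median of 573 and a highest of 880.4 in Landrace. No other sample passed 72.4, and it was 3.54 ± 0.31 above liver (adjusted p = 5.55e-17). COL6A3, a chain of the beaded collagen VI around adipocytes, was at 179.7 to 298 with a median of 235, above the highest other sample at 81.7, and 1.99 ± 0.14 above longissimus dorsi (adjusted p = 6.05e-21). SPARC ran from 2477 to 6779 scaled FPKM with a median of 3847 and was 2.35 ± 0.15 above ovary (adjusted p = 1.41e-23). COL1A2, of fibrillar collagen I, ran from 545 to 2912 with a median of 2067, and its lowest sample overlapped with psoas major; the smallest difference was 2.41 ± 0.22 (adjusted p = 4.82e-16). COL5A3 ran from 36.2 to 269 with a median of 207; its lowest sample, Hampshire, overlapped with longissimus dorsi, and the smallest difference was 2.29 ± 0.16 from longissimus dorsi (adjusted p = 4.28e-21). The 1 gene called lower, COL3A1 of collagen III, was listed at 0 in Berkshire, Landrace, Large White and Rongchang and at 2127 to 6387 in the other 5 samples. A listed 0 can be a failed estimate, and 81 genes were listed at 0 in an adipose sample and at 100 FPKM or more in another. The COL3A1 difference from the mean (-2.14 ± 0.76, adjusted p = 0.0104) turned to 0.39 without the 5 keratin-bearing samples. The call was also lost in paired differences (adjusted p = 0.352), in the 8 breeds with all tissues (-1.31), and without Berkshire (-1.29), Landrace (-1.28), Large White (-1.27) or Rongchang (-1.30).

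Of 26 fibroblast and preadipocyte genes, some of them also matrix genes, 16 were higher than the mean, 1 lower and 6 higher than every tissue, with a median of 1.76. SFRP1, a WNT decoy receptor, was at 84.5 ± 39.3 against 37.6 ± 9.05 in kidney (n = 9 each), with a smallest difference of 1.06 ± 0.21 (adjusted p = 7.13e-06). That difference fell below the limit of 1 without Meishan (0.98) or Rongchang (0.94) and on FPKM as deposited (0.87). It was also below in the 8 breeds with all tissues (0.97), and without the 5 keratin-bearing samples and Meishan (0.90). LUM, lumican, was at 134 ± 67.1 and passed by 1.12 ± 0.28 (adjusted p = 0.00037). The call was lost without the 5 keratin-bearing samples (0.99, adjusted p = 0.0221) and without Meishan too (0.80, adjusted p = 0.111). FBLN2, fibulin 2, ran from 36.9 to 66.7, above every other sample, and passed by 1.48 ± 0.10 (adjusted p = 8.21e-22). DPP4, a marker of early adipose progenitors and of epithelia, was the lower gene, at 1.09 to 6.21 against 144 ± 41.9 in liver (n = 9).

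Signalling and patterning genes gave smaller sets. Of 41 modulators of WNT, BMP and TGF signalling, 11 were higher and 4 lower than the mean, and 5 were higher than every tissue; the median was 0.21. ACVR1C, the activin receptor ALK7 of adipocytes, ran from 5.66 to 19.0 with a median of 8.10, above the 2.57 of the highest other sample, and was 2.35 ± 0.12 above liver (adjusted p = 1.35e-29). FZD4, a WNT receptor, ran from 82.4 to 174 and was 1.82 ± 0.11 above psoas major (adjusted p = 3.52e-24). WIF1, a WNT inhibitor, and BMPR1B, a BMP receptor, were at most 0.280 and 0.959. Of 40 regional transcription factors, 13 were higher and 4 lower, with a median of 0.46. TWIST2, PRRX2 and SHOX2, mesenchymal factors of dermis and limb, had medians of 15.7, 13.9 and 9.21 and were higher than every tissue by 2.41 ± 0.14, 1.83 ± 0.16 and 1.99 ± 0.13 (adjusted p = 3.89e-25, 7.89e-17 and 4.64e-22), without overlap. GATA4, GATA6 and WT1, factors of visceral organs, were lower than the mean, with GATA4 at most 0.0254.

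Retinoid and steroid genes gave 9 of 25 higher and 2 lower than the mean, with a median of 0.12. RBP7, a retinol-binding protein of adipose vessels, ran from 39.9 to 119 with a median of 59.5 and was 2.91 ± 0.24 above heart (adjusted p = 1.24e-17), without overlap. RDH5, a retinol dehydrogenase, ran from 2.41 to 43.6 with a median of 21.3, overlapping with kidney, and was 2.22 ± 0.31 above it (adjusted p = 1.99e-09). HSD11B1, which regenerates cortisol, was at 41.5 ± 21.4 against 609 ± 114 in liver (n = 9 each); its difference from the mean, 1.02 ± 0.12 (adjusted p = 1.15e-11), lay just past the limit and was 0.91 without Hampshire. In complement, 4 of 18 genes were higher, among them C4A (2.73 ± 0.16, adjusted p = 3e-25), and 5 lower, among them C7, of the terminal pathway, and CFI, a protease that inactivates C3b, at -2.48 ± 0.18 and -2.22 ± 0.15 (adjusted p = 3.14e-20 and 5.59e-22).

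The 3 genes lower in adipose than in every tissue included 1 with a symbol. HSPA8, the constitutive heat shock protein of the HSP70 family, was at 11.8 to 24.5 with a median of 20.1 in adipose. Psoas major, the highest tissue for it, stood at 142 ± 75.4 (n = 10), and the difference from the mean was -1.93 ± 0.12 (adjusted p = 9.18e-23). At an unadjusted p under 0.05 the count was also 3.

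Of 15 endothelial and lymphatic markers, 9 were higher than the mean and 1 lower (median 1.05); PECAM1, a junction protein of endothelium, was at 182 ± 43.3 and 1.74 ± 0.08 above the mean (adjusted p = 7.97e-30). Of 17 macrophage and dendritic cell genes, 3 were higher, LYVE1, MRC1 and CD14 (median 0.51), and of 19 lymphocyte genes none was called in either direction (median -0.54). Of 10 nerve and Schwann cell genes 2 were higher, among them NGFR, the low-affinity neurotrophin receptor, which ran from 2.24 in Jinhua to 21.1 in Large White. Of 13 smooth muscle and pericyte genes, CSPG4, of pericytes, was higher and DES, desmin, lower. Over all genes, 7.11% were higher and 5.99% lower, so in lists this short 1 gene called in a direction says nothing about the cells. Markers of kidney, ovary and lung were near 0, with sums of at most 1.57, 4.79 and 17.1; 1 of 11, 4 of 15 and 2 of 10 were lower than the mean and none higher. Of 10 heart markers 7 were lower, of 8 red blood cell genes 1, and of 9 mast cell and neutrophil genes none was called. Of 11 mammary and sweat gland genes 7 passed the filter, of which SAL1 was higher and KRT8, an epithelial keratin, lower. Among 23 liver markers, 4 higher and 3 lower than the mean, ALB was called higher than every tissue at 67.0 ± 45.3, but ALB was listed at 0 in 9 of 9 livers, and the call was lost in 6 of the alternatives tried.

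Of 23 skeletal muscle markers, 5 were higher and 3 lower than the mean (median -0.26). CA3 had the largest difference of the 5, followed by ACTA1, MYL11, TNNC2 and MYL1, and is part of the summed level given above. MYL11, a fast myosin light chain, was 1266 in Meishan, 339 in Landrace and 14.9 to 158 in the other 7, against 34772 ± 13579 in longissimus dorsi (n = 10). TNNC2, fast troponin C, and ACTA1, skeletal actin, were likewise highest in Meishan, at 1006 and 2795, and next in Landrace. Without the Meishan sample 3 of the 23 were higher and 7 lower, with a median of -0.40, and TNNC2 and MYL1 no longer passed, at 0.94 and 0.89. Without the 5 keratin-bearing samples, which leaves Meishan and Landrace among 4, 9 were higher and none lower, with a median of 0.59; on FPKM as deposited 6 were higher and none lower. The part of muscle transcripts in any other result was not tested beyond leaving Meishan out. Among genes of adipocyte function, LGALS12 was lowest in Meishan (22.4 against 34.3 to 134 in the other 8), and FITM1 (18.7) and IRS1 (7.99) were highest there.

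The root sheath keratins fell into a present and an absent state. KRT25 was 114 in Rongchang, 41.0 in Large White and 23.4 to 24.0 in Berkshire, Bamei and Jinhua, and at most 0.112 in Hampshire, Landrace, Piétrain and Meishan. KRT72 was 166 in Rongchang, 61.2 in Large White and 28.4 to 31.6 in the next 3, and at most 0.0769 in the other 4. KRT27 and KRT71 showed the same 5 samples. In the 74 samples of the other tissues KRT25 did not pass 0.420 and KRT72 did not pass 0.176. The keratins are close relatives, and how reads shared between them were counted is not stated. Of 27 keratinocyte and skin appendage markers with a matched symbol, 15 passed the filter on low values; the root sheath keratins passed it only through these adipose samples, so no count of calls is given. The summed level of the 15 was 38.5 to 332 over the adipose samples.

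Further genes varied over the samples. SCGB1D1, a secretoglobin, was 106 in both Jinhua and Rongchang, and PHEROC, a subunit of the pig pheromone carrier pheromaxein, was 72.7 in Jinhua; both were listed at 0 in Meishan. PHEROC was 61.7 in Piétrain, which lacked the keratins. NRIP3 was 140.4 in Hampshire, 104 in Landrace and 88.1 in Piétrain, and 1.19 in Large White, 2.35 in Meishan and 7.12 in Rongchang. AOX1, aldehyde oxidase, was 0.185 in Meishan and 7.19 to 26.7 in the other 8 breeds. With 1 sample per breed, breed and sample cannot be told apart.

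**Figure D5:**
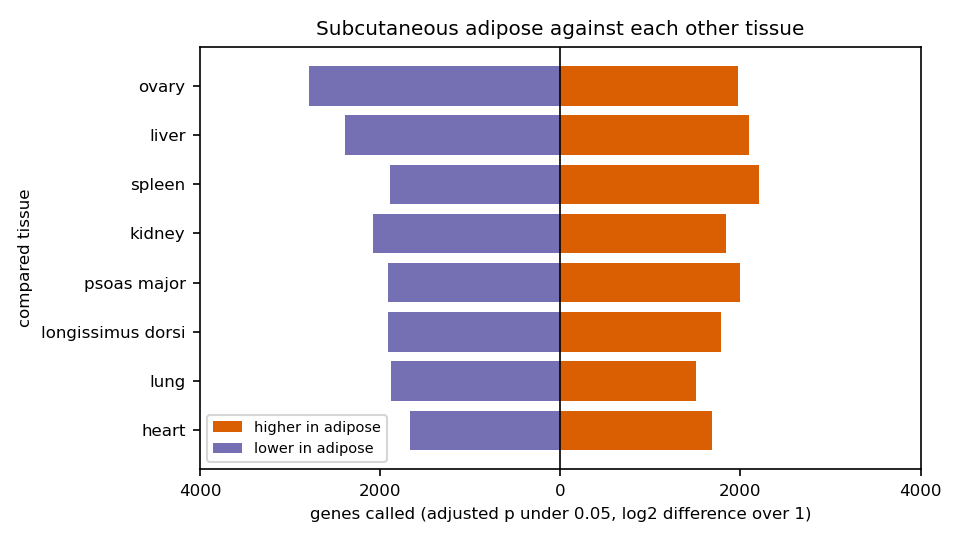
Number of genes called higher (right) or lower (left) in subcutaneous adipose than in each other tissue, at an adjusted p under 0.05 and a log2 difference over 1. Heart and lung differ from adipose in the fewest genes (3350 and 3390) and ovary in the most (4766).

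Against single tissues, the genes called in either direction numbered 3350 against heart, 3390 against lung, 3701 against longissimus dorsi, 3908 against psoas major, 3919 against kidney, 4096 against spleen, 4486 against liver and 4766 against ovary. Adipose was higher than heart in 1681 (9.77%) and lower in 1669 (9.7%), and for lung the counts were 1508 (8.76%) and 1882 (10.9%). They were 1783 (10.4%) and 1918 (11.1%) for longissimus dorsi, and 1991 (11.6%) and 1917 (11.1%) for psoas major. For kidney they were 1834 (10.7%) and 2085 (12.1%), and for spleen 2209 (12.8%) and 1887 (11%). Liver gave 2093 (12.2%) and 2393 (13.9%), and ovary 1973 (11.5%) and 2793 (16.2%). These splits depended on the scaling between samples: on FPKM as deposited adipose was higher and lower in 4032 and 981 genes against longissimus dorsi, 4220 and 1022 against psoas major, 3348 and 1516 against liver, and 2349 and 1233 against heart. They were 1176 and 5107 against ovary, 1014 and 3191 against lung, 1577 and 2539 against kidney, and 1804 and 2746 against spleen. The median Spearman correlation of adipose samples with samples of another tissue, over 17207 genes, ran from 0.739 for ovary to 0.831 for longissimus dorsi. Each adipose sample had a median correlation of at least 0.938 with the other adipose samples. Meishan had the highest correlation of an adipose sample with another tissue, at 0.889 with longissimus dorsi; in the other 8 the highest value was 0.833 to 0.854. For 72 of the 273 genes the nearest tissue was longissimus dorsi, for 56 lung, for 48 ovary and for 14 each psoas major and spleen. The 9 adipose samples are shared by all these comparisons.

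The Western and Chinese breeds were compared in the adipose difference itself, taken within each breed as adipose minus the mean of the 7 other tissues that all 9 breeds have. Of 16996 genes, 1 (0.00588%) passed, while 1109 (6.53%) had an unadjusted p under 0.05. This gene, ENSSSCG00000029400, has no symbol; its difference was 1.19 in Western and -1.34 in Chinese breeds, without overlap (difference 2.54 ± 0.26, adjusted p = 0.0363). The count was 0 without Berkshire, Hampshire, Landrace, Large White, Bamei or Meishan, 1 without Piétrain or Rongchang, and 2 without Jinhua. The named genes with the smallest p, MYZAP, HSDL2, GAREM2 and EHBP1L1, had an adjusted p of at least 0.12. The order of the breeds for FASN and SCD did not divide by origin, since Large White and Berkshire are Western and Rongchang and Meishan Chinese.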

How the data were processed

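RNA from 9 tissues and a mixture of tissues of pigs of 10 breeds was sequenced from TruSeq libraries, per the labels' protocols. The authors deposited FPKM for 25322 gene IDs in 92 samples, made with TopHat and Cufflinks 2.2.1 on Sscrofa10.2, per the submitters' processing notes; the annotation release, the read counts and the handling of reads shared between genes are not given in the sources used here. Of the IDs, 11803 carried a symbol, and of 939 symbols listed in 34 gene lists, 644 matched. The members and lists were chosen with earlier results of these data known.

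From the deposited FPKM, samples were scaled by median ratios and genes kept with at least 1 FPKM in at least 3 of the 83 single-tissue samples. The log2(scaled FPKM + 1) values were fitted with limma 3.58.1 (R 4.3.3, trend and robust options), with tissue and breed as terms. Breed came from the labels and served as the block; the labels do not say that tissues of a breed are from 1 animal. P-values were adjusted by the Benjamini-Hochberg method over all 17207 genes. For origin, limma was run on 1 difference per breed. The main comparison was tried on simulated data with independent normal errors of equal spread over tissues, which the adipose samples need not follow. For origin, the simulated fit lacked the trend and robust options used here, so it does not test that procedure. Absolute depth is unknown. No 2 samples held identical values.

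Named genes had a symbol and were the given markers, the 16 with the largest smallest difference, up to 10 lower than every tissue, the 15 most abundant, per list up to 5 higher and 3 lower than the mean and the main steps of adipocyte pathways, the 6 leading for origin, 2 per tissue pair, the 8 most and 4 least variable over breeds, and the 8 highest and 4 lowest in Meishan. Alternatives covered scaling, the added constant, filters, moderation, the block, sample sets, genes listed at 0, the log2 limit and the muscles as 1 class. Leaving out the 5 samples with KRT25 of at least 10 scaled FPKM, with or without Meishan, was added after seeing the data. No sequences or coordinates are given, as no genome of the files' build was used here. Some genes are not reported here.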

Additional observations from a re-analysis of the deposited data

Results flagged for a closer look

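In 21 of 213 genes examined, 1 adipose sample lay apart from the other 8 by Dixon's test at 95%; chance alone sets about 1 in 20 groups apart, and some of the Meishan genes had been selected for being extreme there. The Meishan sample accounted for 12 of the 21 and Rongchang for 4.

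Among genes of adipocyte function, CIDEC was 44.3 scaled FPKM in Hampshire against 197 or more elsewhere. FADS2 was 2.43 in Jinhua. LPIN1 was 23.1 and ANGPTL4 35.7 in Rongchang, each the lowest of the 9. IRS1 was 7.99 in Meishan, the highest. FITM1 was 18.7 in Meishan against at most 2.48 elsewhere.

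Skeletal or cardiac muscle genes were highest in Meishan: PVALB at 40.7, ACTC1 at 105, MYH13 at 34.7, MYOM2 at 43.8, DHRS7C at 30.7 and MYOD1 at 0.904. NAPSA at 3.34, INHA at 0.272 and SPTB at 3.09 were also highest there, and AOX1 at 0.185 was lowest.

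In single samples of other breeds, SHOX2 was 17.1 in Bamei, C2 was 96.9 in Hampshire and UQCRQ was 67.1 in Large White, each the highest. CRABP1 at 3.02 and KRT15 at 26.1 were highest in Rongchang. By a test of the difference between origins, ENSSSCG00000029400 differed by 2.54 on the log2 scale between Western and Chinese breeds.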

How the results depend on the processing

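The 273 genes higher than every other tissue numbered 251 to 342 over alternatives that kept the log2 limit of 1, and 265 to 284 with single adipose samples left out. With no replicate block the count was 282, of which 271 were shared, and no call of a named gene changed; in paired differences within breeds, also a replicate block, it was 257, with 252 shared, while 3 of 57 named genes lost the call against every tissue and 5 lost and 3 gained one against the mean, of 216. At a log2 limit of 2, 85 genes were higher and 0 lower than every tissue (limma; also 0 lower at an unadjusted p under 0.05), and 397 were higher and 92 lower than the mean. Pairwise counts at that limit, higher then lower, were 509 and 685 for heart, 616 and 884 for kidney, 776 and 1102 for liver, 389 and 766 for longissimus dorsi, 504 and 570 for lung, 632 and 869 for ovary, 506 and 773 for psoas major, and 850 and 698 for spleen. On FPKM as deposited adipose was higher and lower in 3348 and 1516 genes for liver, 4032 and 981 for longissimus dorsi, 1176 and 5107 for ovary, and 4220 and 1022 for psoas major, and lower than lung in 3191. With a constant of 0.1, 17 genes were lower than every tissue and 2015 lower than the mean; adipose was higher than heart in 2804, liver in 3395, longissimus dorsi in 3167, psoas major in 3423 and spleen in 3318, and lower than lung in 3113 and ovary in 4301. Genes lower than every tissue numbered 6 without the 5 keratin-bearing samples and Meishan. COL3A1 reversed to 0.39 without the 5 keratin-bearing samples. The count for origin was 0 on FPKM as deposited, with no filter, without the trend and robust options and without Meishan, 2 with a constant of 0.1, and 0 to 2 with single breeds left out. At a log2 limit of 2, 24 of 57 named genes lost the call against every tissue and 81 of 216 that against the mean; in some other alternative 8 and 37 changed theirs; other causes were not tested. Low genes are limited by an unknown depth, and a breed by its single sample.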

Other observations

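The 9 mixtures, whose tissues and proportions the labels do not give, held little adipocyte RNA. As deposited FPKM, PLIN1 ran from 3.03 to 9.53 with a median of 6.20 in the mixtures, against at least 398 in adipose. ADIG had a median of 7.10, TRARG1 of 2.77 and LGALS12 of 0.742.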
